A study of Mus musculus with 60 samples.

Results

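The striatum of mice killed 8 h after an intraperitoneal injection of saline was compared with the striatum of mice that were never injected and were killed at the same time. All mice were male C57BL/6J animals of 8 to 10 weeks, and no genotype, drug or other agent separated the 2 groups. The comparison holds 6 of the 60 arrays of the series, 3 saline arrays and 3 naive arrays, and each array carried striatal RNA pooled from 2 mice. The other 54 arrays cover the same 2 controls at 1, 2 and 4 h and ketamine, memantine or PCP at 1, 2, 4 and 8 h. The naive group was included so that the injection and the time of day could be told from the drugs.

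An injection is a brief stressor. In rodents it raises circulating corticosterone, which acts through the glucocorticoid receptor, a hormone-activated transcription factor whose targets include Fkbp5, Sgk1 and Tsc22d3. Handling also drives a short burst of immediate early genes such as Fos, Junb and Egr1, whose transcripts decay within hours. Clock genes such as Dbp, Per2 and Ciart follow the time of day. The striatum itself is built mostly of GABAergic projection neurons, which carry dopamine receptors and a dense set of cAMP signalling proteins.

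No transcript passed the test at 8 h. Of 44236 probes, which named 18936 genes, 0 (0%) had an adjusted p under 0.05 in limma's moderated test, and the lowest adjusted p was 0.716. At an unadjusted p under 0.05 there were 1930 probes, 4.36% of those tested, of which 1004 were higher in saline (2.27%) and 926 were lower (2.09%). The differences had a median of -0.01 and an SD of 0.26 on the log2 scale. The median 95% confidence interval reached 0.49 log2 units to either side of the estimate, and for 39508 probes (89.3%) the whole interval lay within 1 log2 unit of 0. On the signals as processed here, a change of 2-fold or more was therefore outside the interval for most probes. The size of a difference on dim probes depended on the processing, and the interval takes no account of the array differences given below.

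The same comparison was made at the other times. At 1 h and 2 h it also called 0 probes, with 1807 (4.08%) and 1874 (4.24%) at an unadjusted p under 0.05, and at 4 h it called 108, with 5239 (11.8%) at that p. The saline arrays of 4 h stood apart, with mean correlations to the rest of the series that ranked 1st, 2nd and 6th lowest of 60 and the widest median spread of the 20 groups. The SD of the differences was 0.25 at 1 h and 2 h and 0.32 at 4 h. The test of whether the difference at 8 h departed from the mean difference at 1, 2 and 4 h called 0 probes (0%), with 2026 at an unadjusted p under 0.05. When the 4 injected groups of 8 h were averaged and set against the naive arrays, a comparison that contains the drugs and shares the naive and saline arrays, 0 probes (0%) were called, the lowest adjusted p was 0.260 and 1280 probes had an unadjusted p under 0.05.

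The arrays differed in ways that bear on every value that follows. The labels give each array a BeadChip (the slide that holds 6 arrays) and a letter from A to F, which was read as its position on the BeadChip, although no source spells this out. By that reading all 3 saline arrays lay at position F and all 3 naive arrays at position D, on 6 different BeadChips. Among these arrays injection and position therefore cannot be told apart. The same held at 4 h, with saline at F and naive at D. At 2 h saline lay at F and naive at C, and at 1 h saline lay at E or F and naive at C. The comparisons at the other times, and the probes called at 4 h, carry the same limit. So do comparisons of the saline or naive arrays with the drug arrays of 8 h, which lay at positions A, B, C and E. The median intensity was 340, 194 and 233 units on saline replicates 1, 2 and 3, and 246, 198 and 176 on naive replicates 1, 2 and 3. Saline replicate 3 had the brightest upper end, a 95th percentile of 5660 intensity units against 2136 to 2853 on the other 5 arrays. Naive arrays correlated with each other at 0.968 to 0.970, saline arrays at 0.941 to 0.965 and saline with naive arrays at 0.948 to 0.969. The saline arrays were thus less alike among themselves than the naive arrays, and the mean correlation of saline replicate 1 with the rest of the series was the 4th lowest of 60. The dissections held striatum by its defining transcripts. Ppp1r1b, Rgs9, Pdyn, Tac1 and Drd1 lay above the 96th percentile of signal on all 6 arrays. Penk ranged from the 93.1st to the 95.8th percentile, Drd2 from the 89.3rd to the 92.2nd and Pde10a from the 85.8th to the 89.4th. Slc17a7, a transporter of cortical glutamatergic neurons, ranged from the 79.6th to the 95.8th percentile and so overlapped the last named.

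Projection neuron markers were mostly higher in saline. Of 22 listed markers 20 were measured, each by its brightest probe, and 18 of them were higher in saline, with a median difference of 0.29 against -0.01 over all probes. For 7 of the 20 all 3 saline arrays lay above all 3 naive arrays, as they did for 1969 of all probes (4.45%), and for 0 of the 20 they lay below, against 2333 of all probes (5.27%). None had an adjusted p under 0.05. Signals are normalized log2 intensities throughout, differences are saline minus naive, and each is given with its standard error (SE) from the fit. In bulk tissue a larger share of a cell type and more RNA per cell cannot be told apart.

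Ppp1r1b encodes DARPP-32, the phosphoprotein through which dopamine and cAMP control protein phosphatase 1. Its log2 signal was 14.37, 14.09 and 14.46 on the saline arrays and 13.80, 13.61 and 13.53 on the naive arrays. The groups did not overlap, and the lowest saline array also lay above the highest of the 9 drug arrays of 8 h, at 14.07. The difference was 0.66 ± 0.23 (SE, n = 3 and 3, 95% interval 0.21 to 1.11, adjusted p = 0.999), a 1.58-fold higher mean on the linear scale. The 2 other probes of Ppp1r1b gave differences of 0.43 and 0.44.

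Pde1b is a calmodulin-dependent phosphodiesterase that breaks down cyclic nucleotides. It read 14.10, 14.18 and 14.93 on the saline arrays and 13.69, 13.77 and 13.73 on the naive arrays. The naive arrays were nearly level, and saline replicate 3 stood well above the other two. The difference was 0.67 ± 0.22 (SE, n = 3 and 3, 95% interval 0.22 to 1.13, adjusted p = 0.999), and the second probe of Pde1b gave 0.60. The difference of Pde1b was 0.41 without saline replicate 3, and up to 0.83 without another of the 6 arrays.

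Drd1 encodes the D1 dopamine receptor of the direct-pathway neurons. It read 12.55, 12.53 and 12.79 on the saline arrays and 11.77, 12.30 and 12.15 on the naive arrays, again with no overlap. The difference was 0.55 ± 0.24 (SE, n = 3 and 3, 95% interval 0.07 to 1.03, adjusted p = 0.999). Drd2, the receptor of the indirect pathway, read 10.71, 10.71 and 10.22 against 10.42, 10.42 and 10.73, a difference of 0.02 ± 0.24 with an interval from -0.45 to 0.50. These values do not settle whether the receptors differed from each other, since that difference was not tested.

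Of the other members without overlap, Adcy5, the main striatal adenylyl cyclase, differed by 0.60 ± 0.31 (SE), on a probe in the dim part of the arrays with a mean signal at the 15.7th percentile. Rasd2, a small GTP-binding protein of the striatum also called Rhes, differed by 0.31 ± 0.20. Pde10a, the phosphodiesterase concentrated in projection neurons, differed by 0.30 ± 0.26, and Arpp19, a cAMP-regulated phosphoprotein, by 0.22 ± 0.17. The neuropeptide precursors were closer together, with 0.29 ± 0.17 for Pdyn (dynorphin), 0.11 ± 0.19 for Tac1 (substance P) and 0.13 ± 0.37 for Penk (enkephalin), and their saline and naive arrays overlapped. Ebf1 and Chrm4 were the 2 members below 0, at -0.02 and -0.01.

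**Figure D1:**
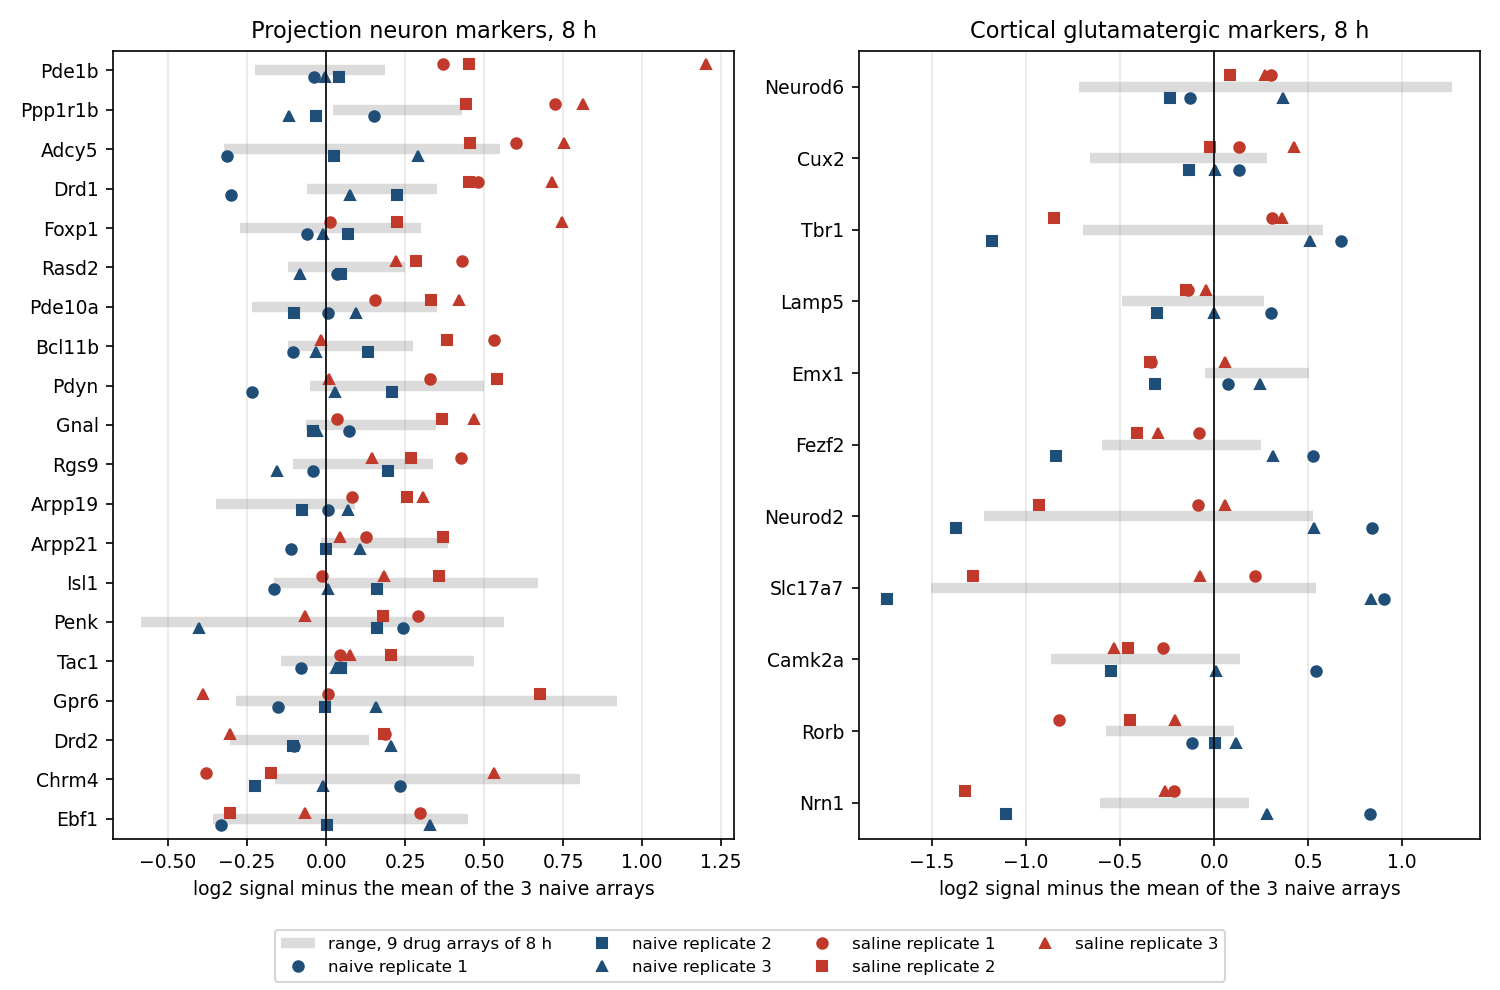
Log2 signal of each marker on each 8 h array, less the mean of the 3 naive arrays, for 20 projection neuron markers (left) and 11 cortical glutamatergic markers (right); red symbols are saline, blue symbols naive, and grey bars span the 9 drug arrays. Ppp1r1b, Pde1b and Drd1 have all saline arrays to the right of every other array of 8 h, whereas among cortical markers such as Slc17a7 naive replicate 2 and saline replicate 2 lie together at the left.

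The starts of Drd1 and Pde1b are printed as the 2 of these 3 leading markers for which a RefSeq promoter was listed. Each run holds 250 bases before and 50 bases after the most upstream of the listed starts (2 for Drd1, 3 for Pde1b) in build GRCm38.p6, 5′ to 3′ on the strand of the gene, and the capital marks the first base of the transcript. Drd1 is taken from chr13:54055609-54055908 on the minus strand and Pde1b from chr15:103502784-103503083 on the plus strand.
Drd1: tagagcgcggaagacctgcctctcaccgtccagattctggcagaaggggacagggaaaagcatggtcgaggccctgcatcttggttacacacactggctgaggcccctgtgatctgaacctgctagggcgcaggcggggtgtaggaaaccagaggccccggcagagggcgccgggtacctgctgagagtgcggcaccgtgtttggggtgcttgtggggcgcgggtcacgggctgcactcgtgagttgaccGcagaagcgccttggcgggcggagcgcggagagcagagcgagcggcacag
Pde1b: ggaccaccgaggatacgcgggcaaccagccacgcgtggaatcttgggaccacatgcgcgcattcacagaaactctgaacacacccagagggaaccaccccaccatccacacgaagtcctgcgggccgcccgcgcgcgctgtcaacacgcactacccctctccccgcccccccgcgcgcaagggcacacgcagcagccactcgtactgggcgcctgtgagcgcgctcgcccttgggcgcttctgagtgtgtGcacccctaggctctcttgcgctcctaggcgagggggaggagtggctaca

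In such windows 4 motifs were searched on both strands, the E-box CACGTG bound by clock proteins, the D-box TTATGTAA bound by Dbp and its relatives, the CRE TGACGTCA bound by CREB, and TGTTCT, the core hexamer of a glucocorticoid response element. The windows of the 7 members without overlap covered 6 genes and 11 starts and held 0 E-boxes, 0 D-boxes, 0 CREs and 1 start with the hexamer (Arpp19). Over all 32851 promoters the shares were 7.15%, 0.938%, 1.79% and 19%. A match describes letters in the window, and its absence says nothing of the factor.

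Taken over the whole list, the mean of the members' log2 signals less their naive mean was 0.24, 0.30 and 0.29 on saline replicates 1, 2 and 3 and -0.06, 0.04 and 0.03 on naive replicates 1, 2 and 3. The 9 drug arrays of 8 h ran from -0.04 to 0.25 and so covered the ground between the 2 controls. Ppp1r1b, Pde1b and Drd1 were the 3 of the 20 whose saline arrays lay above all 12 other arrays of 8 h, as those of 158 of all probes did (0.357%). None of these 12 arrays lay at position F, so saline and position cannot be told apart here either. At 1, 2 and 4 h the median saline minus naive difference of the list was 0.04, -0.07 and 0.11. Ppp1r1b differed by -0.10, -0.16 and -0.10 at these times, and the 8 h difference exceeded their mean by 0.78 ± 0.26 (SE, adjusted p = 1.00).

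The size of this shift depended on how the arrays were read. The list median stayed between 0.22 and 0.26 when any 1 of the 6 arrays was left out, with 17 or 18 of 20 members higher. It was 0.13 with 16 of 20 higher when all probes of a gene were averaged, a reading chosen after the data were seen, and 0.18 with 15 of 20 higher when BeadChip was a block. With median scaling in place of quantile normalization it was 0.42, against 0.04 over all probes. There 1 of 20 members (Adcy5, one of the 7) had all saline arrays above the naive ones. The share over all probes was 2.36% in place of 4.45%. With position as a block, at a median SE of 0.57 a probe, the list median was 0.32, and with BeadChip and position together it was -0.04. Every array at position F was a saline array. Only the 1 h saline group held both F (replicate 3) and another position (E, replicates 1 and 2). Position D shared a group with another position only in the 2 h PCP arrays (replicate 1 at D, replicates 2 and 3 at E). Values with position as a block, here and below, rest on those links alone and cannot serve as a check on position.

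Markers of cortical glutamatergic neurons, the nearest other neurons to a striatal dissection, lay on the other side. Of 11 measured members 9 were lower in saline, with a median of -0.26. All saline arrays lay below all naive arrays for 1 of them (Rorb), against 5.27% of all probes. Slc17a7, the vesicular glutamate transporter VGLUT1, read 10.91, 9.41 and 10.62 on the saline arrays and 11.60, 8.96 and 11.53 on the naive arrays. Naive replicate 2 and saline replicate 2 were low, and naive replicates 1 and 3 were high, so that the spread within a group was far larger than the difference of -0.38 ± 0.65 (SE).

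Neurod2 and Nrn1 had the same low arrays. Neurod2, a transcription factor of cortical excitatory neurons, read 8.88, 8.04 and 9.02 against 9.81, 7.60 and 9.50, and Nrn1, a neurite growth factor, read 10.99, 9.87 and 10.94 against 12.03, 10.09 and 11.48. Averaged over the list, the score was -0.09, -0.56 and -0.02 on the saline arrays and 0.42, -0.71 and 0.29 on the naive arrays. The median of the list was -0.65 without naive replicate 2 and 0.04 without naive replicate 1, and it was 0.59 with position as a block. The part of these neurons in the projection neuron values was not tested.

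**Figure D2:**
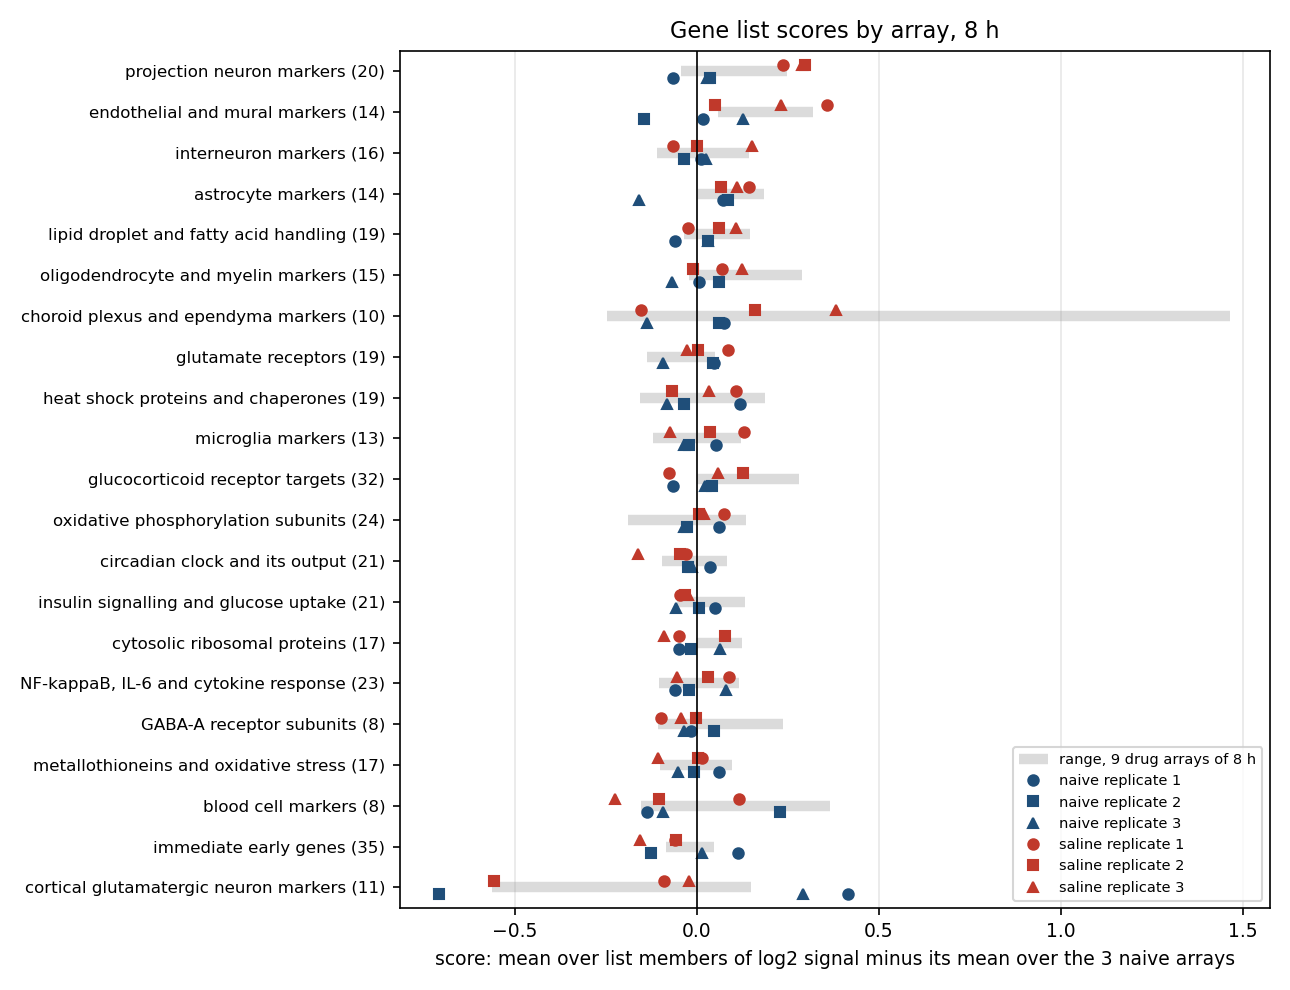
Score of each gene list on each array of 8 h, the mean over its measured members (their number in parentheses) of the log2 signal less that of the 3 naive arrays; red symbols are saline, blue symbols naive, grey bars the 9 drug arrays. The projection neuron list has its saline arrays at 0.24 to 0.30 and its naive arrays at -0.06 to 0.04, and the cortical list has the widest spread within groups, from -0.71 to 0.42 among naive arrays.

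Glucocorticoid receptor targets were evenly split. Of 32 measured members 16 were higher and 16 lower, with a median of 0.01 and 28 intervals wholly within 1 log2 unit of 0. All saline arrays lay above the naive arrays for 3 members (4.45% over all probes) and below for 1 (5.27%). Fkbp5, a co-chaperone that dampens the receptor, read 9.36, 9.25 and 9.22 on the saline arrays and 9.13, 8.88 and 9.04 on the naive arrays. These did not overlap, yet the difference was 0.26 ± 0.20 (SE, 95% interval -0.15 to 0.67). Sgk1, a kinase of ion transport, differed by -0.10 ± 0.22, Tsc22d3, the leucine zipper protein GILZ, by -0.12 ± 0.20, and Plin4, a lipid droplet coat protein, by 0.32 ± 0.35, all with overlapping arrays. The 2 other probes of Tsc22d3 gave -0.60 and -0.25.

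Sult1a1, a phenol sulfotransferase, was the member furthest from 0. It read 9.34, 9.69 and 10.17 on the saline arrays and 8.96, 9.07 and 9.30 on the naive arrays, a difference of 0.63 ± 0.22 (SE, 95% interval 0.19 to 1.07, adjusted p = 0.999). The 9 drug arrays ran from 9.54 to 10.19, so that all 12 injected arrays of 8 h lay above all 3 naive arrays, which held for 58 of all probes (0.131%). The opposite, naive arrays above all 12 injected arrays, held for 66 probes (0.149%). Among the 363 listed genes that were measured it held for Hspa8 alone, a constitutive chaperone whose difference was -0.07 ± 0.14. No injected array of 8 h lay at position D, so in both orders injection and position cannot be told apart. The paper lists Sult1a1 among genes that drug treatment regulated in both tissues, so its drug arrays may also hold a drug effect.

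Cebpb, a transcription factor of acute stress and inflammation, lay on the low side. It read 8.54, 8.91 and 8.63 on the saline arrays and 9.15, 8.99 and 9.13 on the naive arrays, a difference of -0.39 ± 0.18 (SE, 95% interval -0.75 to -0.04, adjusted p = 0.999). Its saline arrays were below all 12 other arrays of 8 h, as those of 189 of all probes were (0.427%). Cebpb, Pdia4, Hk1, Gabra4 and Nos1 were the 5 listed genes placed in this way, and Klf9 and Grm7 joined the 3 projection neuron markers above all 12.

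Of the immediate early genes none passed the test. Of 35 measured members 24 were lower in saline, with a median of -0.13 against -0.01 over all probes. Under median scaling the median was 0.03 with 19 higher, against 0.04 with 55% higher over all probes. With position as a block it was 0.42. Fos read 7.74 and 8.16 on saline replicates 1 and 2 and 9.12, 8.31 and 8.70 on the naive arrays, and saline replicate 3 was within the naive range. The difference was -0.41 ± 0.24 (SE). Junb, its dimerization partner, differed by -0.53 ± 0.25 and Npas4, an activity-dependent transcription factor, by -0.48 ± 0.28, but the other probe of each gave 0.44 and 0.64. Fosb and Btg2 were on the other side, at 0.43 ± 0.28 and 0.54 ± 0.31. Arc and Egr1 differed by -0.26 ± 0.27 and -0.11 ± 0.15. Single arrays moved these values widely, since Fos was at -0.13 without saline replicate 1, Npas4 at -0.21 without naive replicate 3 and Junb at -0.33, Arc at 0.07 and Egr1 at 0.04 without naive replicate 1.

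Several of these transcripts had their highest values on the naive arrays with high cortical markers. Bdnf, the neurotrophin made by cortical neurons and supplied to the striatum by their axons, read 7.27, 7.52 and 8.42 on the saline arrays and 8.73, 7.71 and 8.65 on the naive arrays, a difference of -0.63 ± 0.36. Junb read 9.68, 8.89 and 9.29 on naive replicates 1, 2 and 3, and Arc read 10.16, 8.87 and 9.47. Naive replicate 2 was the lowest naive array for each of these 3 genes as it was for Slc17a7. The saline arrays did not share this order. Slc17a7 was lowest on saline replicate 2 (9.41), whereas Junb was highest there (8.55, 8.99 and 8.75 on replicates 1, 2 and 3). Bdnf was lowest on saline replicate 1. The part of cortical RNA in their differences was not tested.

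Clock genes were evenly spread around 0. Of 21 measured members 9 were higher and 12 lower, with a median of -0.01. None had all saline arrays above the naive arrays, against 4.45% of all probes. Dbp, an output gene with a large daily swing, read 13.85, 13.81 and 13.38 against 13.79, 13.54 and 13.58, a difference of 0.04 ± 0.18 (SE, 95% interval -0.32 to 0.40). Per2 differed by 0.05 ± 0.15, Ciart by -0.01 ± 0.30, Clock by 0.01 ± 0.15 and Arntl by -0.19 ± 0.25. Hlf and Rorb were the 2 members whose saline arrays lay wholly below the naive ones, against 5.27% of all probes. They differed by -0.48 ± 0.22 and -0.49 ± 0.19. The 2 other probes of Rorb gave -0.24 and -0.08, and its probe is the same one counted among the cortical markers.

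Chaperones were split. Of 19 measured members 10 were higher and 9 lower. All saline arrays lay above the naive arrays for 2 (4.45% over all probes) and below for 3 (5.27%). Hsp90b1, the Hsp90 of the endoplasmic reticulum, differed by 0.43 ± 0.23 (SE), while Pdia4 and Sdf2l1, which act in the same compartment, differed by -0.41 ± 0.21 and -0.47 ± 0.25, each with no overlap between groups. The 3 therefore did not lie on one side. Hspa1a, the inducible Hsp70, read 9.24, 7.42 and 7.94 against 7.40, 7.34 and 8.23, and its difference of 0.54 ± 0.34 was 0.02 without saline replicate 1.

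**Figure D3:**
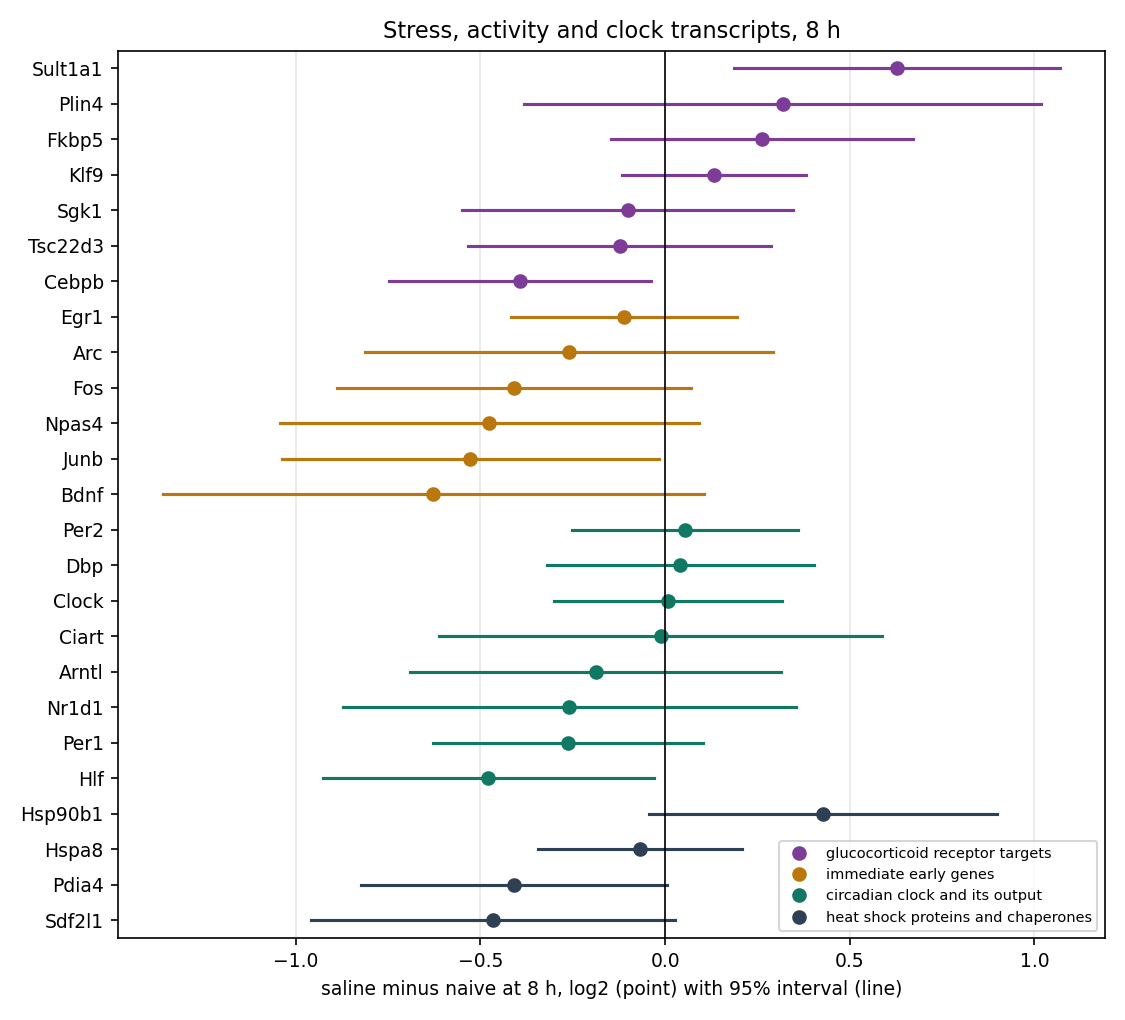
Saline minus naive difference at 8 h on the log2 scale (point) with its 95% confidence interval (line) for 25 transcripts of 4 gene lists, 3 arrays a group. Most intervals span 0; those of Sult1a1, Cebpb, Junb and Hlf do not, and none of the 25 has an adjusted p under 0.05.

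Acta2 gave the widest difference among the 363 listed genes that were measured. Acta2, the actin of smooth muscle and pericytes, read 11.81, 11.36 and 12.43 on the saline arrays and 10.67, 10.32 and 10.85 on the naive arrays. The difference was 1.25 ± 0.37 (SE, 95% interval 0.50 to 2.00, adjusted p = 0.999), a 2.38-fold higher mean on the linear scale, and the 5 other probes of Acta2 gave 1.03, 0.64, 0.36, 0.26 and -0.12. Myh11, the smooth muscle myosin, read 9.22, 8.31 and 8.06 against 7.82, 7.98 and 7.87, a difference of 0.64 ± 0.28 that was 0.30 without saline replicate 1, and its other probe gave 0.08.

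The difference of Acta2 was 0.12 at 1 h, -0.14 at 2 h and -0.88 at 4 h. At 4 h it was -0.21 without saline replicate 1, which read 8.89, and the drug arrays of 8 h ran from 10.49 to 12.03. Of the 14 endothelial and mural markers 11 were higher in saline, with a median of 0.14, and 2 had all saline arrays above the naive arrays (4.45% over all probes). With median scaling the median was 0.29 with 14 of 14 higher, against 0.04 with 55% higher over all probes. A block for BeadChip gave -0.03 with 6 higher.

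In the oligodendrocyte lineage Sox10, its master regulator, read 11.24, 11.24 and 12.04 on the saline arrays and 10.72, 11.02 and 10.83 on the naive arrays, a difference of 0.65 ± 0.21 (SE, 95% interval 0.23 to 1.07). Pdgfra, the receptor of oligodendrocyte precursors, differed by 0.36 ± 0.19, also with no overlap, and its other probe gave -0.31. Over the 15 measured markers of the lineage the median was 0.07 with 10 higher and 5 lower. These 2 genes were the members with all saline arrays above the naive arrays (4.45% over all probes). Sox10, Pde1b, Acta2, Sult1a1, Ppp1r1b and Drd1 all had their highest value on saline replicate 3, the array with the brightest upper end. What part that array's brightness had in them was not tested. Without that array the difference was 0.38 for Sox10 and 0.41 for Sult1a1.

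Astrocyte markers had a median difference of 0.11, with 10 of 14 higher, microglia markers 0.02 with 8 of 13 higher and blood cell markers -0.12 with 3 of 8 higher, and the scores of the 2 groups overlapped in each list. Ttr, the thyroxine carrier of the choroid plexus, varied widely, at 9.89, 12.70 and 12.96 on the saline arrays and 11.16, 11.07 and 10.56 on the naive arrays. Saline replicate 1 was the lowest and saline replicate 3 the highest of the 6, and the drug arrays of 8 h reached 15.66. The difference of 0.92 ± 1.13 (SE) was smaller than its error.

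Receptors showed scattered members only. Of 19 glutamate receptor genes 2 had all saline arrays above the naive arrays, against 4.45% of all probes. Grik2 (a kainate receptor subunit) and Grm7 (a presynaptic metabotropic receptor) were higher by 0.34 ± 0.15 and 0.32 ± 0.18 (SE), while the other probe of Grik2 gave -0.17 and those of Grm7 gave 0.21 and -0.34. Of 8 GABA-A receptor subunits 2 had all saline arrays below, against 5.27% of all probes. Gabra4 differed by -0.46 ± 0.24, which was -0.23 without naive replicate 1 and 0.85 with position as a block, and Gabra3 by -0.40 ± 0.26, which was -0.19 without saline replicate 1. Nos1, the neuronal nitric oxide synthase of a striatal interneuron class, read 7.97, 8.18 and 8.39 against 8.41, 8.84 and 8.84, a difference of -0.52 ± 0.23, and its other probe gave 0.22. Ribosomal protein genes and oxidative phosphorylation subunits had medians of -0.03 and 0.00, and the medians of the cytokine, lipid, insulin and oxidative stress lists lay between -0.07 and 0.08.

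**Figure D4:**
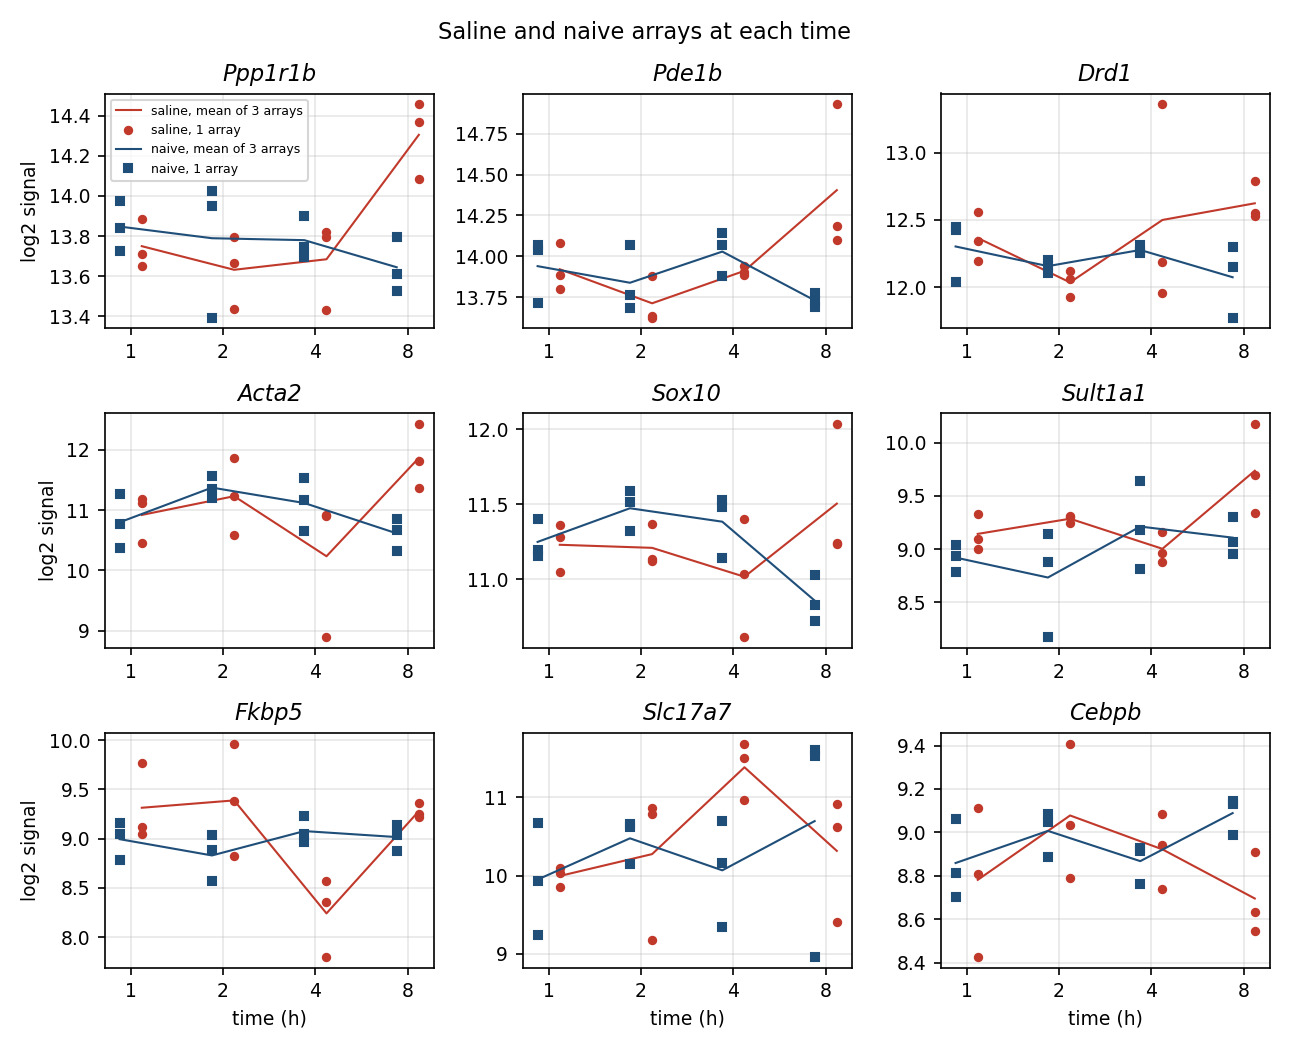
Log2 signal of 9 transcripts on the saline (red) and naive (blue) arrays at 1, 2, 4 and 8 h; each point is 1 array and lines join the means of 3 arrays. At 8 h the saline arrays of Ppp1r1b (14.09 to 14.46) lie above the naive arrays (13.53 to 13.80), while at the earlier times the 2 groups overlap.

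The probes with the smallest p over the whole table were mostly dim. Of the 1930 probes at an unadjusted p under 0.05, 57.8% lay below the median signal, and of the 100 probes with the smallest p 69 did. Among the brighter 22118 probes, 815 (3.68%) had such a p. Mre11a, a nuclease of DNA break repair, had the smallest p, with 6.79, 6.96 and 7.14 on the saline arrays and 6.55, 6.01 and 5.99 on the naive arrays. The difference was 0.78 ± 0.16 (SE, adjusted p = 0.716), but its mean signal was at the 20.0th percentile and its 2 other probes gave -0.14 and -0.25. The differences of dim probes also shrank on the authors' log2 values, where Mre11a was at 0.34, Gpr37 at 0.69 and Adcy5 at 0.27.

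Gpr37, an orphan receptor of oligodendrocytes and neurons, read 6.95, 8.04 and 7.40 against 5.80, 6.19 and 6.44, a difference of 1.32 ± 0.29 (adjusted p = 0.716). Its second probe gave -0.23. Shank3, a postsynaptic scaffold protein, differed by 0.85 ± 0.22 on a dim probe and by 0.21 on its other one. The leading lower probe was one for Dst, the cytoskeletal linker dystonin, with a difference of -0.97 ± 0.23, whereas the 10 other probes of Dst gave -0.30 to 0.52.

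Brighter probes led by p included Rnase4, Prkx, Lsm1 and Ptpru. Rnase4, a secreted ribonuclease, read 10.23, 10.05 and 10.16 on the saline arrays and 9.62, 9.62 and 9.48 on the naive arrays, a difference of 0.57 ± 0.16 (SE), while its other probe gave 0.05. Prkx, a cAMP-responsive protein kinase, read 9.77, 9.51 and 9.86 against 9.16, 9.16 and 9.28, a difference of 0.52 ± 0.15, and its 3 other probes gave 0.15, -0.26 and 0.28. Lsm1, a component of the mRNA decay machinery, read 9.25, 9.40 and 9.31 against 9.81, 9.79 and 9.71, a difference of -0.45 ± 0.13, and its 4 other probes gave -0.22, -0.12, 0.04 and 0.24. Ptpru, a receptor tyrosine phosphatase, read 6.95, 7.51 and 7.39 against 7.97, 8.08 and 7.99, and both of its probes were lower in saline, by -0.73 and -0.62. All 4 had an adjusted p of 0.999.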

How the data were processed

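The authors ran striatal RNA of 2 pooled mice on each Illumina mouse bead array. The deposited intensity table holds their signals before normalization, and the deposited log2 table holds the same signals after background subtraction, quantile normalization and log2 transformation by the authors. Within each of the 60 arrays both tables had the same rank order. The intensities were background-corrected by normexp (offset 50), quantile-normalized and log2-transformed in limma 3.58.1 (R 4.3.3). A probe was kept if it exceeded the 25th percentile of its array on at least 3 arrays, which left 44236 of 45281. One model with a mean for each of 20 groups was fitted to all 60 arrays (40 residual degrees of freedom), and p-values were adjusted by Benjamini and Hochberg over all probes at a threshold of 0.05. The fit was tested on simulated data. Nothing states that replicate pools shared no handling, so p-values measure the spread between pools.

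Groups, BeadChips and positions came from the labels. Probes were named from the platform table through Entrez numbers (34885 with 1 symbol, 18 with several, 10378 with none), and 363 of 405 listed genes were measured. The 21 gene lists, drawn from general knowledge, used the brightest probe of a gene. The comparison, the lists and the genes were chosen with earlier results of these data known. The named genes were the 12 smallest p in each direction, the 8 in each direction among probes above the median signal, up to 4 per list, 25 anchor genes fixed with the design, and the 6 smallest p for 8 h against the other times, and of these the text gives a selection. Other listed genes were named after their values were seen. RefSeq promoters (GRCm38.p6) gave the sequences. Alternatives tried were median scaling, the deposited log2 table, signals without background correction (offset 16), 2 other filters, BeadChip, position and replicate number as blocks, another variance model, fewer arrays and leaving out each array of the comparison.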

Additional observations from a re-analysis of the deposited data

How the results depend on the processing

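No alternative called a probe for saline against naive at 8 h, for the 8 h difference against the other times or for the injected groups against naive, whichever array was left out. Counts at an unadjusted p under 0.05 moved more. For saline against naive at 8 h, 1930 became 717 with a filter on all 60 arrays, which tested 17390 probes in place of 44236. It became 3226 with a BeadChip term and 3895 with a position term, and 1592 to 2567 without 1 array. For the 8 h difference against the other times, 2026 became 589 with the filter, 3326 with a BeadChip term and 3418 with median scaling, and 1806 to 2603 without 1 array. For the injected groups, 1280 became 186 with the filter and 756 with median scaling, and 1156 to 1415 without 1 array. The filter tested fewer and other probes, and the cause of these moves, those with the filter included, was not tested. The last 2 comparisons could not be estimated with position as a term and were not run.

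Of 143 named probes, 59 changed sign with position as a block, 84 with BeadChip and position, 12 with median scaling and 1 with BeadChip alone, and 2 to 7 when 1 array was left out. Of 21 list medians, 9 changed sign with position as a block, 9 with median scaling and 7 with BeadChip. Under median scaling the median over all probes was 0.04 in place of -0.01, and 55% of probes were higher in place of 48.4%. The split of probes at an unadjusted p under 0.05 was then 665 higher and 990 lower, 40.2% higher against 52% in the values reported. The median standard error was 0.24 in the reported fit, 0.57 with position and 1.15 with BeadChip and position, so that position was resolved poorly. Position F was tied to the other positions through the 1 h saline arrays alone, and position D through the 2 h PCP arrays alone. With the replicate number as a block, 0 probes were called and 1927 had an unadjusted p under 0.05. Same-numbered saline and naive arrays deviated together with correlations of 0.09, 0.01 and 0.12, so the numbers were not taken as pairs. Of the 143 named differences, 46 were over 1.5 times smaller on the authors' log2 values and 61 without background correction, among them 35 of the 36 on probes below the median signal in either case. Signal over background was not measured here, and each group had 3 arrays.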
